A study of Mus musculus with 6 samples.

Results

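The cells described here are the fibroblasts that the deposited annotation places in sub-cluster 4. They carry the cell type name Fibroblast and the fibroblast sub-cluster number 4. They number 1543 of the 12651 Fibroblast cells and of the 25428 cells deposited in all. The annotation divides the fibroblast types into 9 sub-clusters, and sub-cluster 1, with 9727 Fibroblast cells, is the one they are compared with. A further 15 cells of sub-cluster 4 carry another type name, 14 of them Fibroblast proliferating, and do not enter the values except where cells of every type name are mentioned.

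The cells came from the retinal pigment epithelium (RPE) and choroid, the vascular layer behind it, of male C57BL/6J mice aged 12 to 16 months. They were dissociated and kept in culture before droplet-based single-cell RNA sequencing of RNA 3′ ends. There were 3 Dram2 WT samples (wt/wt) and 3 Dram2 KO samples (ko/ko). The Dram2 KO allele is a constitutive CRISPR/Cas9 deletion of exon 4, carried in every cell of the animal. Dram2 KO replicate 3 was the only sample of batch 2, and the other 5 were of batch 1. The labels do not say that each sample is a separate animal, so p-values measure the spread between these samples, which may be technical.

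Fibroblasts in culture often become myofibroblasts, cells that build actin stress fibres and contract. The thin filament genes of this state include smooth muscle actin (Acta2) and the actin-binding proteins transgelin (Tagln) and calponin (Cnn1). Many of them are switched on by serum response factor (SRF) with its actin-sensing partners, the myocardin-related factors Mrtfa and Mrtfb, through a DNA element called the CArG box.

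The promoters of genes that were lower in sub-cluster 4 than in sub-cluster 1 (values below) were searched for this element. In each case the CArG box stands in capitals with 10 bases on either side, written 5′ to 3′ on the strand of the gene. These 6 windows are shown because they belong to actin cytoskeleton and muscle genes among the lower genes. They were picked after the values were seen. The other matches, not shown, were in the lower genes Fermt2, Kctd15, Lurap1l, Stbd1, 1700009N14Rik and 4833412C05Rik. No match was found for Acta2, Tagln, Cnn1, Actg2 or Myh11. Only 14 of the 17 contractile genes described below had a promoter window. Sequences are from RefSeq on GRCm38.p6.
Acta1: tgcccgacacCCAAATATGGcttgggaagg
Myl9: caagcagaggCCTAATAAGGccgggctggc
Vcl: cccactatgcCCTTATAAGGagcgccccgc
Cnn2: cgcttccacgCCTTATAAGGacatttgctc
Lmcd1: tgctccttgcCCTTTAAAGGagaagggcgt
Fhl1: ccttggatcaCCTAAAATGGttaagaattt
Their positions are chr8:123894829-123894858 on the minus strand for Acta1 (skeletal muscle actin) and chr2:156775293-156775322 on the plus strand for Myl9 (myosin regulatory light chain). The windows of Vcl (vinculin), at chr14:20929161-20929190, and Cnn2 (calponin 2), at chr10:79988534-79988563, are on the plus strand. Those of Lmcd1, at chr6:112273533-112273562, and Fhl1, at chrX:56779571-56779600, both encoding LIM domain proteins, are also on the plus strand.

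The share of sub-cluster 4 among Fibroblast cells did not differ detectably between genotypes. It was 10.1%, 14.98% and 14.2% in the Dram2 WT samples (193, 342 and 357 cells) and 11.3%, 9.23% and 14.1% in the Dram2 KO samples (95, 309 and 247 cells). The means were 13.1% ± 2.64 and 11.6% ± 2.45 (SD, n = 3 each, exact two-sided permutation p = 0.5). With 3 samples against 3, the smallest p this test can give is 0.1, so no share can pass 0.05. The summed UMIs (molecules counted by unique molecular identifier) of sub-cluster 4 ranged from 4464575 to 9117908 per sample. Median depth per cell was 27885, 23442.5 and 24998 UMIs in Dram2 WT and 51627, 14202 and 27695 UMIs in Dram2 KO (exact permutation p = 0.8). Pooled over samples, the median was 23380 UMIs in sub-cluster 4 and 27190 in sub-cluster 1, and it was lower in sub-cluster 4 in each of the 6 samples. The median share of mitochondrially encoded RNA was 3.70% in sub-cluster 4 and 2.87% in sub-cluster 1. The part of these differences in depth and mitochondrial share in the results below was not tested.

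Few of the Fibroblast cells of sub-cluster 4 were cycling, a share in part set by the choice of members. Cells that carried the type name Fibroblast proliferating, 14 in sub-cluster 4 and 200 in sub-cluster 1, were no members and were not counted in these shares. With each cell thinned to 8000 UMIs, 8 of 1456 cells (0.549%) had 2 or more UMIs of the proliferation genes Mki67 and Top2a together, against 0.663% in sub-cluster 1 and 68.9% in Fibroblast proliferating. A total of 87 cells of sub-cluster 4 and 684 of sub-cluster 1 lay under that depth and were left out. Without thinning the shares were 3.24%, 5.67% and 85.8%. The mean thinned share was 0.315% ± 0.546 in Dram2 WT and 0.632% ± 0.555 in Dram2 KO (SD, n = 3 each, exact permutation p = 0.7). In Dram2 WT all such cells were in replicate 2, and the share was 0 in the other 2 samples.

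The label Fibroblast was checked against markers. Levels are in CPM, the customary unit of sequencing counts scaled to depth, here the UMIs of a gene as a share of all UMIs summed over the cells of a sample and sub-cluster. All 10 fibroblast markers reached a mean of 10 CPM or more in sub-cluster 4, and their summed level was 7313 to 10685 CPM per sample against 10193 to 11945 CPM in sub-cluster 1. The 7 myofibroblast and smooth muscle markers summed to 3248 to 4231 CPM in sub-cluster 4 and 22553 to 26777 CPM in sub-cluster 1. The 7 pericyte markers summed to 376 to 505 CPM against 70.5 to 91.4 CPM, mostly through Rgs5, with a mean of 328 CPM against 33.2 CPM. Of these 7, Rgs5, Notch3 and Cspg4 reached 10 CPM in sub-cluster 4, Ndufa4l2, Abcc9 and Kcnj8 had means of 4.29, 0.721 and 0.526 CPM, and Higd1b was at 0. The endothelial sum was 18.9 to 22.4 CPM, the myeloid sum 14.3 to 19.6 CPM, the RPE sum 0.942 to 20.9 CPM and the T cell sum at most 0.149 CPM. Melanocyte markers summed to 2.64 to 4.03 CPM, Schwann markers to 4.71 to 8.51 CPM and keratinocyte markers to 0.431 to 1.49 CPM. Photoreceptor markers summed to 4.75 to 19.2 CPM against 0.643 to 1.31 CPM in sub-cluster 1, mostly through Sag, while Pde6b and Prph2 were at 0. Tenocyte markers summed to 40.3 to 54.7 CPM against 13.4 to 19.7 CPM, and osteoblast markers to 47.9 to 58.4 CPM against 21.1 to 28.1 CPM. Chondrocyte markers summed to 69.4 to 129.6 CPM and adipocyte markers to 12.4 to 22.1 CPM. The markers leave the cells as fibroblasts with low contractile gene levels, and no narrower name is given.

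Sub-cluster 4 was set beside sub-cluster 1 in the same sample, gene by gene. The sub-clusters were made from the expression of these same cells, so these values describe them and no test is given. Of 9160 genes with a mean of 10 CPM or more in either sub-cluster, 367 (4.01%) were at least 2-fold higher and 187 (2.04%) at least 2-fold lower in sub-cluster 4. Folds are the mean over 6 samples of the log2 ratio of (CPM + 1), and the direction had to be the same in all 6 samples. For 359 of the 367 and 180 of the 187, the 6 sums of sub-cluster 4 did not overlap the 6 of sub-cluster 1. Over all 9160 genes, 29.1% lay higher and 10.5% lower without overlap. The minimum was met through sub-cluster 4 alone by 178 of the 367 and through sub-cluster 1 alone by 66 of the 187, genes that entered the count by being high there. Of 8289 genes at 10 CPM or more in both sub-clusters, 189 (2.28%) were higher and 121 (1.46%) lower. The median log2 ratio over all genes was 0.15. With TMM scaling, which rests on a trimmed mean of the gene ratios, the whole scale shifted by -0.25, the median of all genes was -0.10 and the counts became 214 higher and 319 lower. Just inside the limits lay Atg14 at 1.00 and Htra1 at -1.004, and just outside them Gli3 at 0.998 and Abracl at -0.9997.

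The contractile genes were the list that stood lowest. Of its 17 genes, 14 were lower in sub-cluster 4 by the 2-fold rule, none was higher, and all 17 had a log2 ratio below 0. Their median log2 ratio was -1.60, beside 0.15 for all genes. Of the 16 at 10 CPM or more in both sub-clusters 13 were lower, beside 1.46% of all such genes. With TMM scaling 14 of the 17 were lower. Sub-cluster 4 held 9573 to 11577 CPM of the 17 genes together per sample, and sub-cluster 1 held 35631 to 41345 CPM.

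Acta2 (chr19:34241090-34255590), the smooth muscle actin, stood at 1791, 1901 and 1890 CPM in sub-cluster 4 of the Dram2 WT samples and at 1332, 1727 and 1965 CPM in the Dram2 KO samples. In sub-cluster 1 it stood at 11839, 11817 and 11883 CPM and at 11207, 12732 and 14162 CPM. Every value of sub-cluster 4 lay far below every value of sub-cluster 1, and the mean log2 ratio was -2.80 ± 0.17 (SD over 6 samples). Tagln stood at 1916 ± 162 CPM against 9959 ± 969 CPM (SD, n = 6), a log2 ratio of -2.38. Actg2, the enteric smooth muscle actin, stood at 91.2, 113 and 98.0 CPM and at 54.6, 87.1 and 92.3 CPM in sub-cluster 4, against 1233 ± 137 CPM in sub-cluster 1, a log2 ratio of -3.80. Cnn1 stood at 51.8 ± 18.6 CPM against 594 ± 68.7 CPM, a log2 ratio of -3.57.

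Myh11, the smooth muscle myosin heavy chain, was at 2.23 ± 0.718 CPM in sub-cluster 4 and at 49.1 ± 12.3 CPM in sub-cluster 1, a log2 ratio of -3.95. It met the minimum through sub-cluster 1 alone. The enzyme that phosphorylates the myosin light chain, Mylk, had 29.4 CPM against 158 CPM, and its substrate Myl9 had 169 CPM against 958 CPM. Leiomodin 1 (Lmod1), which nucleates actin filaments, had 20.4 CPM against 124 CPM. The tropomyosins, which lie along the thin filament, differed less: Tpm1 had 1636 CPM against 3601 CPM and Tpm2 had 709 CPM against 2142 CPM. Cald1 (caldesmon), Des (desmin) and Smtn (smoothelin) did not reach the 2-fold rule. Cald1 had 3041 CPM against 3942 CPM, and Des had 76.8 CPM against 102 CPM with overlapping samples. Across the list the log2 ratio ran from -0.38 for Cald1 to -3.95 for Myh11.

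**Figure D1:**
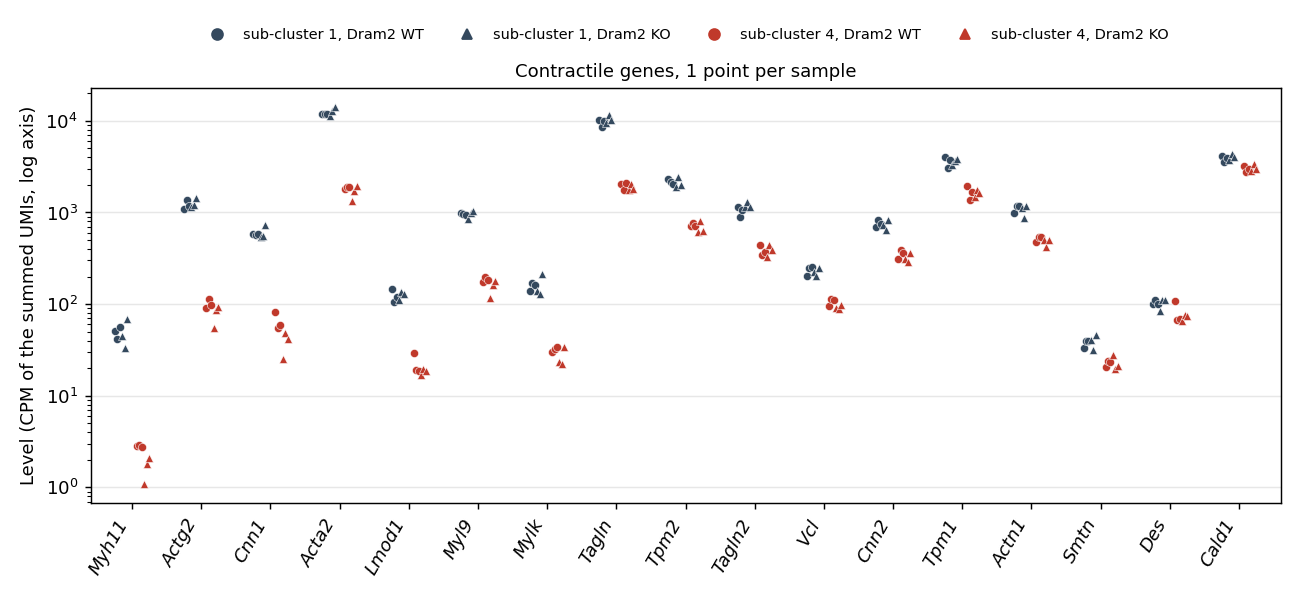
Level of each of the 17 contractile genes in CPM on a log axis, 1 point per sample (circles Dram2 WT, triangles Dram2 KO), in sub-cluster 1 (blue) and sub-cluster 4 (red), ordered by log2 ratio. The sub-cluster 4 points lie below the sub-cluster 1 points for the genes from Myh11 to Actn1, and the samples overlap for Des.

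Among genes outside the list, skeletal muscle actin (Acta1) had the most negative log2 ratio of all genes, -4.11 ± 0.84. It stood at 11.9, 6.63 and 7.68 CPM and at 1.94, 8.51 and 7.77 CPM in sub-cluster 4, and at 136 CPM on average in sub-cluster 1. Acta1 met the minimum through sub-cluster 1 alone. Actin genes are close in sequence, and reads from a stretch that several of them share cannot be assigned to a single gene. Beta-actin (Actb), the main cytoskeletal actin, was at 4942 ± 539 CPM against 11034 ± 891 CPM, and Tmsb4x, which binds actin monomers, at 6504 CPM against 14725 CPM. These genes and those of the next sentence were chosen after their values were seen. Srf was at 28.1 CPM against 44.2 CPM (log2 ratio -0.64), Mrtfa at 42.5 CPM against 44.5 CPM and Mrtfb at 39.1 CPM against 20.7 CPM (log2 ratio 0.89), and none of the 3 reached the 2-fold rule.

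The lower contractile level was seen in most cells of sub-cluster 4. In each cell the CPM of the 17 genes was summed and set against the sub-cluster 1 cells of the same sample. Of the 1543 cells, 1053 (68.2%) lay below the 5th percentile of sub-cluster 1, and 15 (0.972%) lay above its median. The median cell held 7744 to 8939 CPM in sub-cluster 4 across the 6 samples and 30540 to 35936 CPM in sub-cluster 1. At 8000 UMIs per cell, Acta2 had a UMI in 93.1% of sub-cluster 4 cells, 99.7% of sub-cluster 1 cells and 80.7% of 171 endothelial cells. Without thinning these shares were 98.6%, 99.96% and 88.9%, at median depths of 23380, 27190 and 9262.5 UMIs.

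**Figure D2:**
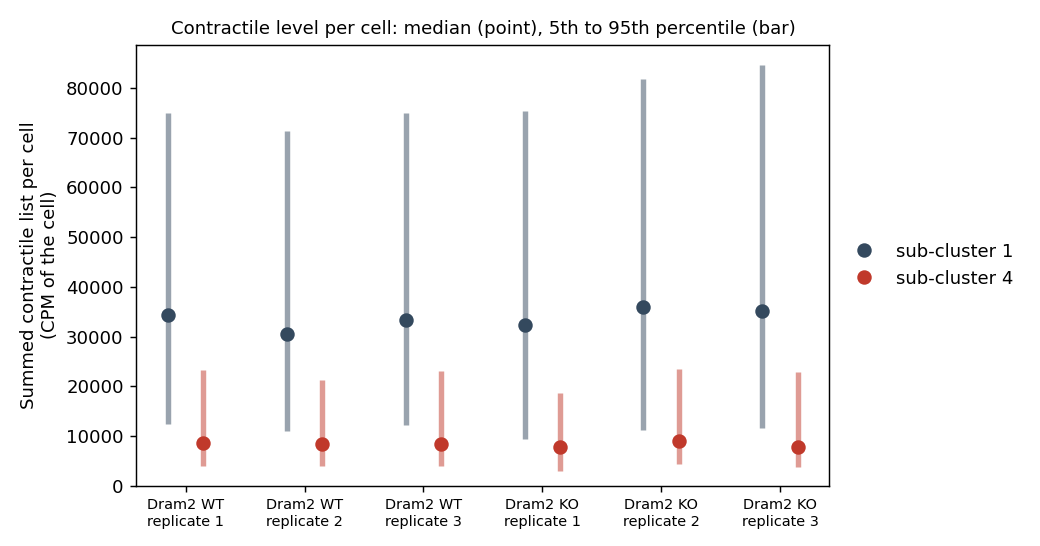
Summed CPM of the 17 contractile genes per cell in each sample for sub-cluster 1 (blue) and sub-cluster 4 (red), with the median as a point and the 5th to 95th percentile of cells as a bar. Medians are 7744 to 8939 CPM in sub-cluster 4 and 30540 to 35936 CPM in sub-cluster 1.

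Across the 9 sub-clusters, with cells of every type name, the summed contractile level was 10894 CPM in sub-cluster 4. It was lower, at 2937 CPM, in sub-cluster 8, whose 168 cells all carry the name Fibroblast-like. The next above sub-cluster 4 were sub-cluster 6 at 15073 CPM and sub-cluster 3 at 27208 CPM, and the others ran from 29369 CPM to 50399 CPM.

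The other lower genes of sub-cluster 4 included secreted and signalling proteins. Igfbp2, which binds insulin-like growth factors, stood at 137, 206 and 155 CPM and at 116, 195 and 229 CPM in sub-cluster 4, against 1203 ± 176 CPM in sub-cluster 1, a log2 ratio of -2.82. Ankrd1, a target of the growth regulator YAP, had 27.6 CPM against 197 CPM (log2 ratio -2.84). The natriuretic peptide gene Nppb had 0.605 CPM against 12.9 CPM, and Uts2b, encoding a urotensin-related peptide, 0.369 CPM against 18.02 CPM. Both met the minimum through sub-cluster 1 alone and were near 0 in sub-cluster 4. The remaining genes among the 12 with the most negative ratios were Nnat at -3.51, the muscle enolase Eno3 at -3.02, Lmcd1 at -2.97 and Ptprz1 at -2.89.

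Some lists of matrix genes held both higher and lower members, to be read beside the 4.01% of all genes that were higher and the 2.04% that were lower. Of 13 basement membrane genes, 3 were lower (23.1%) and 1 higher (7.69%), with a median of -0.31. Col4a1, a chain of the basement membrane collagen IV, had 381 CPM against 1020 CPM (log2 ratio -1.42). Col18a1, which gives rise to endostatin, had 42.7 CPM against 4.59 CPM (log2 ratio 2.98), and met the minimum through sub-cluster 4 alone. Of 18 fibrillar collagen and cross-linking genes 1 was lower (5.56%) and none higher, a single gene. Of 4 small leucine-rich proteoglycan genes none was higher or lower. All 4 had a log2 ratio below 0, with a median of -0.21, beside 3020 of all 9160 genes below 0. Of 14 matricellular genes 4 were higher (28.6%), 1 of them with the minimum met through sub-cluster 4 alone, and 1 was lower (7.14%). Spp1 (osteopontin) stood at 3200, 3631 and 2638 CPM and at 3974, 3132 and 3826 CPM in sub-cluster 4, against 1267 ± 268 CPM in sub-cluster 1 (log2 ratio 1.44). Tnc (tenascin C) was lower, at 370 CPM against 1033 CPM. Of 18 YAP targets 3 were lower (16.7%) and none higher. Of the 15 fibroblast identity genes 2 were lower (13.3%), S100a4 and Thy1, and 1 was higher (6.67%).

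**Figure D3:**
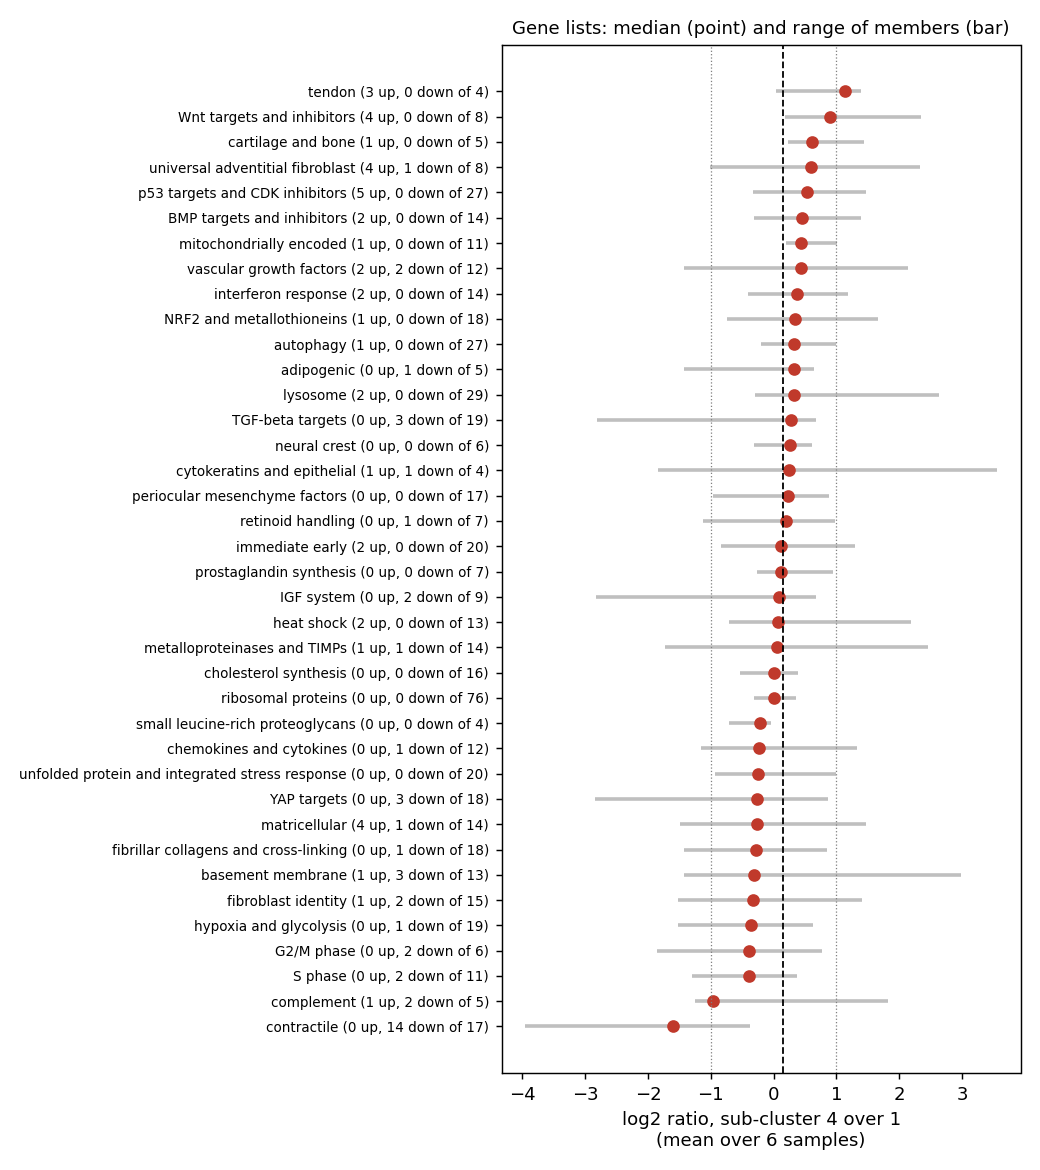
Median (point) and range (bar) of the log2 ratio of sub-cluster 4 over sub-cluster 1 for each gene list, over members at 10 CPM or more, with the number at least 2-fold higher (up) and lower (down). Dotted lines mark a log2 ratio of 1 and -1, the dashed line the median of all genes (0.15), and the contractile list lies lowest at -1.60.

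Among the 12 with the largest ratios, 11 had 10.8 to 42.0 CPM in sub-cluster 4 and Rgs5 had 328 CPM. The 11 lay at 0.199 to 3.78 CPM in sub-cluster 1 and met the minimum through sub-cluster 4 alone. Tnfrsf18 (chr4:156026164-156028895), a receptor of the tumour necrosis factor family known from T cells, had 18.7, 15.4 and 19.1 CPM and 34.3, 17.2 and 18.4 CPM in sub-cluster 4. In sub-cluster 1 it had 0.199 ± 0.0404 CPM, and the log2 ratio was 4.12 ± 0.39. Of the T cell markers Cd3e, Cd3d, Cd3g, Cd2 and Cd8a were at 0 in sub-cluster 4. Matn4 (matrilin 4, a matrix adaptor protein) had 27.3 ± 6.25 CPM against 0.621 CPM (log2 ratio 4.11), and Sytl1, a vesicle docking protein, 25.4 ± 6.44 CPM against 0.938 CPM (3.74). Dsp (desmoplakin), which anchors keratin filaments at desmosomes, had 35.002 ± 5.60 CPM against 2.07 CPM (3.55). Pm20d1, a secreted enzyme that makes N-acyl amino acids, had 42.0 ± 6.76 CPM against 3.78 CPM (3.16).

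Rgs5 (chr1:169655501-169695813), a regulator of G protein signalling known as a pericyte marker, stood at 296, 421 and 317 CPM in the Dram2 WT samples and at 268, 335 and 332 CPM in the Dram2 KO samples of sub-cluster 4. In sub-cluster 1 it ranged from 23.2 to 45.9 CPM, and the log2 ratio was 3.29 ± 0.34. With 8000 UMIs per cell it was found in 61.3% of sub-cluster 4 cells, 13.8% of sub-cluster 1 cells and 2.92% of 171 endothelial cells (78.2%, 28.6% and 4.86% without thinning). Over all type names Rgs5 had 333 CPM in sub-cluster 4, followed by 110 CPM in sub-cluster 7 and 88.6 CPM in sub-cluster 9. The pericyte marker Notch3, a receptor that mural cells use, was also higher, at 48.7 ± 2.93 CPM against 9.38 CPM. It met the minimum through sub-cluster 4 alone. Cspg4 had 48.1 CPM against 36.2 CPM with overlapping samples.

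**Figure D4:**
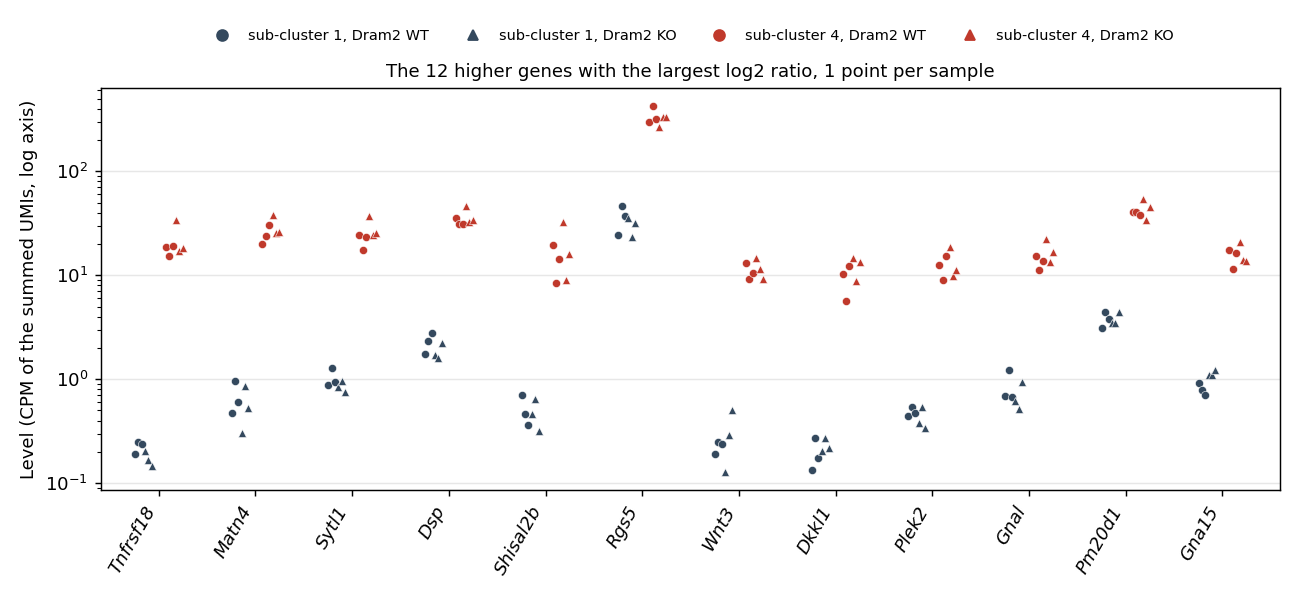
Level in CPM on a log axis of the 12 higher genes with the largest log2 ratio, 1 point per sample, in sub-cluster 1 (blue) and sub-cluster 4 (red), circles for Dram2 WT and triangles for Dram2 KO. The genes were chosen for this ratio and 11 of them met the minimum of 10 CPM through sub-cluster 4 alone. The sub-clusters do not overlap for any of the 12, and Rgs5 is the only one of them above 100 CPM.

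Single Wnt genes were higher. Of 30 Wnt targets and inhibitors 8 reached 10 CPM in either sub-cluster, and 4 of these were higher (3 with TMM scaling), beside 4.01% of all genes. Lgr6, Wnt4 and Dkk3 met that minimum through sub-cluster 4 alone, where they were high, so the count is in part set by the minimum. Of the 5 members at 10 CPM or more in both sub-clusters 1 was higher, Wnt2, beside 2.28% of all such genes. Lgr6, a receptor for R-spondins, had 20.7 ± 4.42 CPM against 3.20 CPM (log2 ratio 2.35). The ligand Wnt2 had 53.2 ± 8.54 CPM against 11.8 CPM (2.07), and Wnt3, a ligand outside the list, had 11.4 ± 2.21 CPM against 0.267 CPM (3.27). Of 8 tendon genes 4 reached 10 CPM, and 3 of these were higher (2 with TMM scaling). The tendon transcription factors Scx, at 20.6 CPM against 8.02 CPM, and Mkx, at 21.5 CPM against 7.57 CPM, met the minimum through sub-cluster 4 alone. The third was the immediate early factor Egr1, and the collagen gene Col12a1 had a log2 ratio of 0.04. Under the minimum, Fmod and Comp had ratios of 0.58 and 0.22, and Tnmd and Thbs4 of -0.35 and -0.12. Of 14 BMP genes 2 were higher (14.3%), the target Id2 at 312 CPM against 118 CPM and the inhibitor Grem1 at 162 CPM against 61.2 CPM.

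Of 27 genes of the p53 pathway and CDK inhibitors, 5 were higher by the rule (4.01% over all genes) and none lower, with a median of 0.53. A log2 ratio above 0 was found for 23 of the 27 (85.2%), against 67.0% of all genes. With TMM scaling 4 were higher and 21 (77.8%) above 0, against 39.0% of all genes. Other lists had a like share above 0, among them autophagy (85.2%), lysosomal (82.8%) and NRF2 and metallothionein genes (83.3%). With TMM scaling the shares of these lists were 61.5%, 58.6% and 55.6%. Mdm2, which marks p53 for degradation and is its target, stood at 1609, 1136 and 1397 CPM and at 1365, 1515 and 1219 CPM, against 675 ± 45.3 CPM in sub-cluster 1 (log2 ratio 1.02, and 0.77 with TMM scaling, under the 2-fold rule). The death receptor Fas had 101 ± 4.30 CPM against 37.4 CPM (1.42), and Trp53inp1, a p53-induced autophagy protein, 148 ± 11.6 CPM against 53.3 CPM (1.46). Cdkn1a, the p21 inhibitor, did not reach 2-fold, at 1523 CPM against 1033 CPM (0.56).

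Few redox and lysosomal genes were higher, 1 of 18 NRF2 and metallothionein genes and 2 of 29 lysosomal genes, shares near the 4.01% of all genes. Gclc, which catalyses the first step of glutathione synthesis, had 420 ± 31.7 CPM against 132 CPM (log2 ratio 1.66). Gpx3, the secreted glutathione peroxidase, stood at 439, 627 and 548 CPM and at 412, 333 and 550 CPM, against 97.3 CPM on average (2.33). It belongs to the list of 16 adventitial fibroblast genes, of which 8 were at 10 CPM or more, all in both sub-clusters. Of these 8, 4 were higher (Gpx3, Cd55, Sema3c and Ly6a) and 1 lower (Mfap5), beside 2.28% higher and 1.46% lower of all such genes. Only the 4 higher ones had a log2 ratio above 0. With TMM scaling 4 were higher and 2 lower. The members under the minimum, among them Pi16, Cd34 and Clec3b, had ratios from -0.22 for Dpp4 to 0.80 for Has1. Man2b1, a lysosomal mannosidase, had 268 ± 20.9 CPM against 42.8 CPM (2.63). The other lysosomal gene, the protease Tpp1, had 429 CPM against 198 CPM (1.12), but 0.87 with TMM scaling. Of 76 ribosomal protein genes none was called, with a median of -0.00, and of -0.24 with TMM scaling. All 11 mitochondrially encoded genes were above 0, with a median of 0.44 and 1 higher, and 9 were above 0 with none called with TMM scaling.

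Of the 367 higher genes, 294 (80.1%) had their highest level in sub-cluster 4 among all 9 sub-clusters, and 37 had it in sub-cluster 6. Of the 187 lower genes, 8 (4.28%) had their lowest level in sub-cluster 4 and 167 (89.3%) had it in sub-cluster 8. These ranks were read from the cells that made the clusters and are a description. The genes were chosen for their ratio of sub-cluster 4 over sub-cluster 1, which in part sets the ranks. Of the 367, 178 met the minimum through sub-cluster 4 alone. The same shares over all genes were not counted.

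The fixed genes differed little. Mgp stood at 3183, 2761 and 1908 CPM and at 4799, 2914 and 2349 CPM in sub-cluster 4 against 2493 ± 235 CPM in sub-cluster 1, with overlap. Dcn (decorin) had 431 CPM against 466 CPM. Dram2 had 31.3 CPM against 36.4 CPM, and its relative Dram1 had 15.4 CPM in both.

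The promoters of the lower genes were searched for 5 sequence words, on both strands, in windows from 250 bases before to 50 bases after each RefSeq start. The choice of words was made after the expression values were seen, and a match is a description, not a binding site. A CArG box was present in 12 of 127 lower genes with a promoter window (9.45%), in 2 of 276 higher genes (0.725%), in 115 of 6961 genes at 10 CPM or more (1.65%) and in 488 of 27025 genes of the table (1.81%). It was present in 3 of the 14 contractile genes with a window (21.4%), the Myl9, Vcl and Cnn2 shown above. Of the same 14 genes, 8 (57.1%) held a TEAD site, 2 an AP-1 site, 1 a TATA box and none an E-box. None of the 12 matches overlapped another of the words. A TEAD site (CATTCC), the word read by the partners of YAP, was present in 34 of 127 lower genes (26.8%), 34 of 276 higher genes (12.3%), 14.0% of genes at 10 CPM and 16.6% of the table. A TATA box (TATAAA) was present in 18.9% of lower genes, 11.2% of higher genes, 8.40% of genes at 10 CPM and 15.7% of the table. The AP-1 site (TGACTCA or TGAGTCA) was present in 7.09% of lower and 6.88% of higher genes, against 4.15% of genes at 10 CPM and 5.95% of the table. The E-box (CACGTG) was present in 4.72% of lower and 11.6% of higher genes, against 12.5% at 10 CPM and 8.09% of the table.

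Between genotypes, most genes called in sub-cluster 4 fell in Dram2 KO, and few of them belonged to a list. The test was voom-limma on the 6 sums, with Benjamini-Hochberg adjustment. Of 13643 genes tested, 109 (0.799%) were called at an adjusted p under 0.05, of which 2 (0.0147%) rose and 107 (0.784%) fell. At an unadjusted p under 0.05 there were 929. The count moved from 30 to 178 when 1 sample was left out. It was 30 without Dram2 WT replicate 3 and without Dram2 KO replicate 2, 47 without Dram2 WT replicate 2 and 178 without Dram2 KO replicate 1. Within batch 1, without Dram2 KO replicate 3, it was 91, with 5 higher and 86 lower.

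Cox7c, a subunit of mitochondrial cytochrome c oxidase, fell from 139, 166 and 169 CPM to 79.2, 55.8 and 43.0 CPM (log2 fold change -1.47 ± 0.18 SE, adjusted p = 0.00786 in voom-limma). Rps20, a protein of the small ribosomal subunit, fell from 675, 759 and 788 CPM to 371, 258 and 204 CPM (-1.46 ± 0.18, adjusted p = 0.00786 in voom-limma). Both were named after their values were seen, and both passed under all 13 alternatives tried for this comparison. In sub-cluster 1 the same genes fell by 1.48 and 1.51 on the log2 scale. Each passed there under 6 of 13 alternatives. The calls there were lost without any 1 Dram2 WT sample or without Dram2 KO replicate 2, with an adjusted p of up to 0.214 in voom-limma. The sub-cluster by genotype term (below) was -0.0007 for Cox7c (adjusted p = 0.999 in voom-limma) and 0.02 for Rps20 (adjusted p = 0.996). No difference between the sub-clusters was detected for either gene. Of 78 ribosomal protein genes 8 fell and none rose, beside 0.784% of all genes. Their median was -0.25, beside 0.01 for all genes. In sub-cluster 1, 3 of the 78 fell and none rose, beside 0.305% of all genes. Their median there was -0.28, beside -0.01 for all genes. Of 20 NRF2 and metallothionein genes 2 fell: Gstp1, a glutathione transferase, with a log2 fold change of -1.11, and Mt1, a metal-binding metallothionein, from 719, 676 and 732 CPM to 483, 413 and 550 CPM. Gstp1 (adjusted p = 0.00939 in voom-limma) passed under all 13 alternatives. Mt1 (adjusted p = 0.0466) passed under 5 of them. It was lost on leaving out any library but Dram2 KO replicate 3. Its adjusted p was up to 0.259, without Dram2 WT replicate 3. In sub-cluster 1 the log2 fold change was -1.09 for Gstp1 (adjusted p = 0.0445 in voom-limma) and -0.53 for Mt1 (adjusted p = 0.175). The sub-cluster by genotype term (below) was -0.01 for Gstp1 (adjusted p = 0.999 in voom-limma) and -0.05 for Mt1 (adjusted p = 0.994). Of 15 fibroblast identity genes 1 fell, S100a4, which shares exons with another annotated gene and had an adjusted p of 0.0491 in voom-limma. It passed under 7 of 13 alternatives and was lost without Dram2 WT replicate 1, Dram2 WT replicate 3 or Dram2 KO replicate 2 (adjusted p up to 0.178). Of the 17 contractile genes none was called and the median was -0.15, and in every list not named here none was called.

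The genes that fell were short. Of the 107, 85 (79.4%) had a longest transcript under 1000 bases, against 12.3% of all tested genes, and their median length was 438 bases against 3097. A Gm number or a pseudogene symbol was carried by 68 (63.6%), against 13.7% of all tested. Among the 727 tested genes under 500 bases the median log2 fold change was -0.37 and 69 were called. For genes of 500 to 1000 bases it was -0.07, and 17 of 952 were called. The part of transcript length in the genotype difference was not tested. In sub-cluster 1 the genes under 500 bases had a median of -0.22. Of its 57 called genes with a known length, 48 (84.2%) were under 1000 bases, against 20.6% of all tested. Their median length was 423 bases against 2670. A Gm number or a pseudogene symbol was carried by 44 of its 58 called genes (75.9%), against 25.9% of all tested. The 5 lower genes of sub-cluster 4 with the largest fold changes all had such symbols: Gm10709 (log2 fold change -3.32), Gng5-ps (-2.88), Gm11972 (-2.68), Gm13182 (-2.62) and Gm14719 (-2.38). Of 13 alternatives, Gm10709 passed under 10, Gm11972 under 9, Gng5-ps and Gm14719 under 5 each and Gm13182 under 4 (adjusted p up to 0.83). In sub-cluster 1 the log2 fold changes of the same 5 genes ran from -2.07 for Gng5-ps to -1.22 for Gm11972. Gm13182 and Gm14719 were called there, each passing under 6 of 13 alternatives. Pseudogene reads may come from a near-identical parent gene, so these counts are uncertain.

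The 2 genes that rose, Sbsn and Tmem147os, share exons on the same strand, so reads of one cannot be told from the other. Sbsn (suprabasin) rose from 54.5, 52.0 and 49.8 CPM to 105, 69.0 and 85.1 CPM (log2 fold change 0.71 ± 0.13 SE, adjusted p = 0.0382 in voom-limma). In sub-cluster 1 it was at 13.5 to 19.9 CPM in all samples. Its adjusted p ranged from 0.000657 to 0.17 over 13 alternatives, and the call was lost without any 1 sample except Dram2 KO replicate 2. Dram2 itself had 28.8, 37.5 and 34.1 CPM in Dram2 WT and 29.8, 27.3 and 30.5 CPM in Dram2 KO (log2 fold change -0.21, adjusted p = 0.897 in voom-limma). The deleted exon 4 lies outside the 3′ end that is read, so this count does not check the knockout.

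In sub-cluster 1, 58 of 18994 genes (0.305%) were called, all of them lower, and none of the 17 contractile genes, whose median was 0.00. This count was lost under several settings: 1 gene was called with edgeR and with library size alone, 2 with the replicate block, and 0 without Dram2 WT replicate 3 or without Dram2 KO replicate 2, where 936 and 1081 genes had an unadjusted p under 0.05.

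Whether the genotype difference was the same in both sub-clusters was tested with a sub-cluster by genotype term, with the sample as a factor. Of 18494 genes tested, 14 (0.0757%) were called, 4 (0.0216%) with a higher and 10 (0.0541%) with a lower Dram2 KO effect in sub-cluster 4. An unadjusted p under 0.05 was found for 897, no more than that threshold would pass with no difference. Of the 17 contractile genes, 4 were called, all lower: Acta2, Tagln, Cnn1 and Actg2. All 17 were below 0, with a median of -0.21 beside -0.00 for all genes, of which 9309 were below 0. These values describe how far sub-cluster 4 lay below sub-cluster 1 in each sample, and neither sub-cluster by itself had a called contractile gene. The sub-clusters were made from the expression of these same cells. The part of that assignment in the sub-cluster by genotype term was not tested.

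For Acta2 the log2 ratio of sub-cluster 4 over 1 was -2.72, -2.64 and -2.65 in the Dram2 WT samples and -3.07, -2.88 and -2.85 in the Dram2 KO samples, with no overlap. The difference of the genotype effects was -0.28 ± 0.04 SE (adjusted p = 0.0157 in voom-limma). For Tagln the ratios were -2.32, -2.30 and -2.23 against -2.44, -2.49 and -2.48, and the difference was -0.21 ± 0.03 (adjusted p = 0.0157). For Cnn1 they were -2.82, -3.36 and -3.27 against -4.36, -3.50 and -4.09, and the difference was -0.83 ± 0.14 (adjusted p = 0.0157). For Actg2 they were -3.56, -3.57 and -3.57 against -4.36, -3.76 and -3.95, and the difference was -0.45 ± 0.09 (adjusted p = 0.0482).

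The calls of these 4 genes depended on the settings. Without the 5% of cells with the most UMIs in each sample, of which 12 were in sub-cluster 4 and 622 in sub-cluster 1, the difference was -0.16 for Acta2 (adjusted p = 0.977), -0.13 for Tagln (adjusted p = 0.895), -0.63 for Cnn1 (adjusted p = 0.0783) and -0.30 for Actg2 (adjusted p = 0.977). With the edgeR quasi-likelihood test the adjusted p was 0.0758 for Acta2 and 0.2498 for Tagln. For Tagln it was 0.0562 without Dram2 KO replicate 2. For Cnn1 it was 0.400 within batch 1, without Dram2 KO replicate 3, 0.192 with no filter, and 0.0623 both without Dram2 WT replicate 3 and without Dram2 KO replicate 1. Actg2 passed under 4 of 12 alternatives. Its adjusted p was 0.0504 with DESeq2 size factors, 0.103 with library size alone and 0.208 with no filter. It was 0.204 within batch 1, 0.167 without Dram2 WT replicate 3, 0.0772 without Dram2 KO replicate 1 and 0.0618 without Dram2 WT replicate 1. Over 12 alternatives the adjusted p ranged from 0.000692 to 0.977 for Acta2, from 4.19e-05 to 0.895 for Tagln, from 0.00178 to 0.4 for Cnn1 and from 0.00924 to 0.977 for Actg2.

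Cdkn1c, the CDK inhibitor p57, had 63.5, 47.9 and 40.4 CPM in Dram2 WT and 17.0, 32.5 and 24.9 CPM in Dram2 KO in sub-cluster 4, and 31.1, 38.2 and 34.8 CPM against 42.3, 44.5 and 33.3 CPM in sub-cluster 1. It was higher in sub-cluster 4 than in sub-cluster 1 in all 3 Dram2 WT samples and lower in all 3 Dram2 KO samples, and the difference was -1.17 ± 0.19 (adjusted p = 0.0157 in voom-limma, 0.00211 to 0.192 over 12 alternatives). Within batch 1 it was -1.33 with an adjusted p of 0.0568. Eln (elastin), the elastic fibre protein, had 17.7, 11.1 and 17.99 CPM against 3.24, 7.17 and 7.02 CPM in sub-cluster 4, and between 1.51 and 4.33 CPM in sub-cluster 1. Its difference was -1.91 ± 0.36 (adjusted p = 0.0407, and 0.00561 to 0.361 over 12 alternatives), and the call was lost without Dram2 WT replicate 1 or 3 and without Dram2 KO replicate 1 or 3. Cdkn2a, which encodes the cell cycle inhibitors p16 and p19, had 18.8, 9.63 and 16.8 CPM against 26.1, 40.1 and 18.2 CPM in sub-cluster 4, and the samples overlapped. Its difference was 1.10 ± 0.21 (adjusted p = 0.0422, and 0.0151 to 0.252 over 12 alternatives), and the call was lost without any 1 sample except Dram2 WT replicate 3. Csrp1, an actin-associated LIM protein, had 179, 171 and 158 CPM against 126, 128 and 145 CPM in sub-cluster 4, with a difference of -0.36 (adjusted p = 0.0157, and 0.204 within batch 1).

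**Figure D5:**
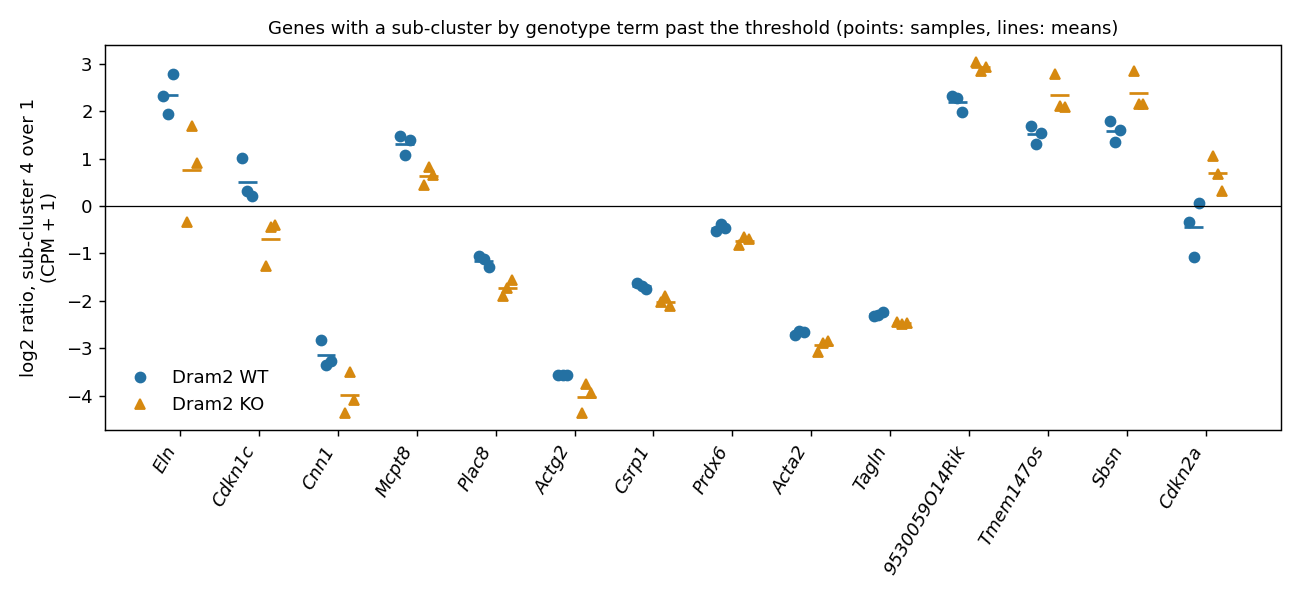
Log2 ratio of sub-cluster 4 over 1 (from CPM + 1) in each of the 6 samples for the 14 genes called in the sub-cluster by genotype term, blue circles for Dram2 WT and orange triangles for Dram2 KO, with lines at the means. Acta2 lies at -2.72 to -2.64 in Dram2 WT and at -3.07 to -2.85 in Dram2 KO.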

How the data were processed

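Single-cell RNA was counted in 6 samples of mouse RPE and choroid cells. The authors deposited unnormalised UMI counts per gene and cell (52636 genes, 25428 cells) with a table of sample, genotype, batch, cell type and fibroblast sub-cluster. Counts were made with Cell Ranger 3.1.0 against GRCm38 (mm10), exons only, per the submitters' processing notes and the study's methods. Cell types came from Louvain clusters in Seurat, after log-normalisation and integration by batch. A symbol was found for 52403 of the gene identifiers. The settings of the sub-clustering are not given in the sources used here, nor is doublet removal, and no doublet caller was run. Cell names are running numbers, so barcodes shared between libraries could not be counted. Counting intervals and floors cover counting error only.

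Counts were summed per sample and sub-cluster, over Fibroblast cells. Genotype differences were tested with voom-limma (limma 3.58.1, edgeR 4.0.16, R 4.3.3), with filterByExpr, TMM factors and Benjamini-Hochberg adjustment over all genes tested, and the sub-cluster by genotype term with the sample as a factor. Levels are CPM of these sums, and log2 ratios used a pseudocount of 1 CPM. DESeq2 1.42.0 and edgeR's quasi-likelihood fit were among the alternatives. The steps were also run on simulated counts with known changes, which held no effect of transcript length or batch. Single values per sample were compared by exact two-sided permutation tests.

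The members, the 38 gene lists and the tests were chosen with earlier results of these data known. Named genes were Dram2, Dram1, Mki67, Top2a, Mgp and Dcn. To these were added the 12 higher and 12 lower genes with the largest ratios, leaving out Gm, Rik, -ps and mitochondrially encoded symbols, and, in each list, the 3 highest genes and the 2 with the largest absolute ratio. From the genotype test, up to 5 higher and 5 lower called genes were named, those with the largest fold change and no overlap. Other genes were chosen after their values were seen.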

Additional observations from a re-analysis of the deposited data

Results flagged for a closer look

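For 14 genes the genotype difference differed between sub-clusters 4 and 1, by the sub-cluster by genotype term of voom-limma at an adjusted p under 0.05. The values are log2 differences, sub-cluster 4 minus sub-cluster 1. They were -1.91 for Eln, -1.17 for Cdkn1c, -0.83 for Cnn1, -0.75 for Mcpt8, -0.55 for Plac8, -0.45 for Actg2, -0.36 for Csrp1, -0.29 for Prdx6, -0.28 for Acta2 and -0.21 for Tagln. They were 0.81 for 9530059O14Rik, 0.82 for Tmem147os, 0.82 for Sbsn and 1.10 for Cdkn2a. Tmem147os and Sbsn share exons on the same strand and count as 1 signal. Not all of these calls held under the 12 alternatives. 9530059O14Rik and Cdkn2a passed under 3 of them, Prdx6, Eln and Actg2 under 4, Mcpt8 under 6, Cnn1 under 7, Sbsn and Tmem147os under 8, Tagln under 9, and Acta2, Csrp1, Plac8 and Cdkn1c under 10. The adjusted p rose to 0.455 for 9530059O14Rik, which lost its call without any 1 of the 6 samples. It rose to 0.101 for Prdx6, lost without Dram2 WT replicate 3 and without each Dram2 KO sample, and to 0.208 for Mcpt8, lost without Dram2 WT replicate 1 or 3 and Dram2 KO replicate 1 or 3. No sample was tested as standing apart within its genotype.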

How the results depend on the processing

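In sub-cluster 4, 109 genes were called between genotypes. The count was 166 with DESeq2, 216 with no filter on low counts, 62 with the replicate block and 30 to 178 without 1 sample each. In sub-cluster 1, 58 were called. The count was 1 with edgeR, 302 with DESeq2, 1 with library size alone, 167 with no filter, 2 with the replicate block and 0 to 242 without 1 sample each (0 without Dram2 WT replicate 3 and without Dram2 KO replicate 2, 1 without Dram2 WT replicate 1 and without Dram2 WT replicate 2, 242 without Dram2 KO replicate 1, and 162 within batch 1). The sub-cluster by genotype term gave 14, and 9 with library size alone, 2 with no filter, 7 without the 5% of cells with the most UMIs and 6 to 19 without 1 sample each. It was 6 without Dram2 WT replicate 3 and 8 without Dram2 KO replicate 3.

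The 367 higher genes became 239 with a pseudocount of 5 CPM, 651 with a minimum of 1 CPM, 107 with a minimum of 50 CPM and 214 with TMM scaling, and 337 to 397 without 1 sample each. The 187 lower genes became 295, 99 and 319 with the minimum of 1 CPM, that of 50 CPM and TMM scaling, and 182 to 199 without 1 sample each.

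The difference in median UMIs per cell, Dram2 KO minus Dram2 WT, was 5733 and ranged from -4493 to 14219 without 1 sample each. The direction turned to -4493 without Dram2 KO replicate 1. The share of sub-cluster 4 differed by -1.53 percentage points and the cycling share by 0.317. Both kept their direction, but ranged from -3.04 (without Dram2 WT replicate 1) to -0.37 (without Dram2 KO replicate 2) and from 0.112 (without Dram2 KO replicate 2) to 0.633 (without Dram2 KO replicate 1). Without Dram2 WT replicate 2 they were -0.58 and 0.632, without Dram2 WT replicate 3 -0.97 and 0.159, without Dram2 KO replicate 3 -2.82 and 0.205, and the cycling difference was 0.159 without Dram2 WT replicate 1 and 0.593 with no thinning. The causes of these shifts were not tested.

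Replicate numbers were not used to pair samples, since the labels give no shared animal or day. In sub-cluster 4 the correlation of deviations from the group means between same-numbered samples was -0.22, -0.43 and 0.16 for numbers 1, 2 and 3, and in sub-cluster 1 it was -0.37, -0.57 and 0.22. The replicate block gave 62 and 2 calls, as above.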
